A study of Mus musculus with 12 samples.

Results

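Transcripts of 9 dopamine and adrenergic receptor genes were followed across the hippocampus: the dopamine receptor genes Drd1, Drd2 and Drd5, the alpha-1 adrenergic receptor genes Adra1a, Adra1b and Adra1d, the alpha-2 genes Adra2a and Adra2c, and the beta-1 gene Adrb1. They were chosen by symbol, with earlier results of these data known. They are 9 of the 26787 genes listed for both the dorsal and the ventral hippocampus. The mice were adult and homozygous for a floxed Tet3 allele. Those called cKO also carried 1 copy of Camk2a-CreERT2, a Cre recombinase that tamoxifen switches on and that is driven by the Camk2a promoter, so that recombination is limited to the cells where that promoter works, mainly excitatory neurons of the forebrain. Controls were Tet3 fl/fl mice without Cre. The floxed line was on C57BL/6N and the Cre line on B6;129S6, and the labels give 1 treatment for all samples, tamoxifen at 50 mg/kg begun at 6 weeks of age, in blocks of 5 days with 7 days between them. Both hippocampal poles were macrodissected, and each of the 4 combinations of pole and genotype gave 3 samples, which were sequenced as 3′ mRNA tags. Samples carry here the number in their title. The labels do not say that each number is a separate animal, so p-values measure the spread between these samples.

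Dopamine and noradrenaline reach the hippocampus through axons of midbrain and brainstem neurons, and the receptors are what hippocampal cells use to read them. The receptors encoded by Drd1 and Drd5 (D1 class) and by Adrb1 couple to stimulatory G proteins and raise cyclic AMP, which feeds protein kinase A and the plasticity of excitatory synapses. Those encoded by Drd2, Adra2a and Adra2c couple to inhibitory G proteins and lower cyclic AMP, while the alpha-1 receptors couple to Gq and release calcium through phospholipase C. Tet3 is a dioxygenase that oxidises methylated cytosine, mostly at CpG sites.

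Because CpG sites are where Tet enzymes act, the promoter windows of 3 members are shown with each CpG in capitals. They are RefSeq sequences of GRCm38.p6, 300 bases long (250 before to 50 after the annotated start), written 5′ to 3′ on the gene's strand. Adra2a and Drd1 were chosen because their tags were higher in the ventral hippocampus, and Adra2c because it is the close relative of Adra2a.
Adra2a (chr19:54045009-54045308, plus strand): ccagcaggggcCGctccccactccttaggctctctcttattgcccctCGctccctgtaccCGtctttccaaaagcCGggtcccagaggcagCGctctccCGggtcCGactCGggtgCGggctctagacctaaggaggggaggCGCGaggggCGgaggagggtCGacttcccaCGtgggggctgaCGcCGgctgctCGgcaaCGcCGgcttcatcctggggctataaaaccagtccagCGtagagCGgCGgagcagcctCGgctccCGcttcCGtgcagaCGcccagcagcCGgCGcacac
Drd1 (chr13:54055609-54055908, minus strand): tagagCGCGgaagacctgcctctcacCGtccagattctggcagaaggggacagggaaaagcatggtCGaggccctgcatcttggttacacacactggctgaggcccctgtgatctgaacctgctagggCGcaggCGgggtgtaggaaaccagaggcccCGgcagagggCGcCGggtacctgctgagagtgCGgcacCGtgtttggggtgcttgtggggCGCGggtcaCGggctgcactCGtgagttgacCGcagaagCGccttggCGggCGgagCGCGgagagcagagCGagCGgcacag
Adra2c (chr5:35278316-35278615, plus strand): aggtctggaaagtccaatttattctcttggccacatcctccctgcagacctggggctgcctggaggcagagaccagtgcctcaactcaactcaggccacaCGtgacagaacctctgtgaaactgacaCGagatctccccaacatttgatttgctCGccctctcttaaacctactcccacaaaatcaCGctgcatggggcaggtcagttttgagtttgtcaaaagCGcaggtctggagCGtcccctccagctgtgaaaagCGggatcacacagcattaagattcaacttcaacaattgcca
The Adra2a window holds 28 CpG sites, a number reached by 14.2% of the 32851 promoter windows in the table, whose median is 7. The Drd1 window holds 23, reached by 21.5% of windows, and a further Drd1 start listed downstream has 6. The Adra2c window holds 7, the same as the median. In GENCODE M21 the Adra2c gene begins at 35278319 and the Adra2a gene at 54044151. By that annotation nearly all of the Adra2c window and all of the Adra2a window lie inside the gene. The 2 annotations thus place the starts differently, and the CpG numbers of these genes hold for the RefSeq starts only. Of the other members with an entry, Drd5 has 38 CpG sites (reached by 4.95% of windows), Adrb1 has 28, Drd2 has 23, and the 2 windows of Adra1b have 28 and 3. Adra1a and Adra1d had no entry. The cyclic AMP response element TGACGTCA, which reads the same on both strands, was in none of the 9 windows of these 7 genes and in 1.79% of all windows. The GC box GGGCGG, searched on both strands and overlapping a CpG, was in at least 1 window of Adra2a, Drd1, Drd2, Drd5, Adra1b and Adrb1 and not in that of Adra2c, so members with and without a region difference hold it, as do 35.7% of all windows. DNA methylation was not measured in these samples, so the windows describe sequence alone.

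Levels are given as CPM (tag counts scaled to a common library size) after TMM scaling, a correction for library composition, over all 12 libraries. Total counts ran from 5.12 to 15.9 M per library (median 9.07 M). A tag counts a transcript once whatever its length, but 3′ capture differs between genes, so levels are compared between samples and not between receptors. Tet3 tags were 29.9 to 37.2 CPM in dorsal controls and 32.3 to 41.8 in dorsal cKO samples, and 23.6 to 34.7 against 25.3 to 35 in the ventral hippocampus. Where the tags lie relative to the deleted part is not given in the labels, and these values, which were not lower in cKO samples (log2 0.18 ± 0.12 in the dorsal and 0.05 ± 0.17 in the ventral hippocampus, adjusted p = 0.968 and 0.963, edgeR), cannot serve as a check of recombination. Libraries of 1 region were also not alike in tissue makeup. The summed level of 8 choroid plexus transcripts was 4888 CPM in dorsal control 49 and 3027 in dorsal cKO 64, against 270 to 451 in the other 4 dorsal libraries, and it was 210 in ventral cKO 40 and 173 in ventral cKO 64, against 2590 to 4502 in the other 4 ventral libraries. For the receptor and pathway genes refitted without them, these 4 libraries are named wherever leaving them out ends a call given here. Marker calls and some effector calls were not refitted in this way. That fit has fewer libraries. It also sets ventral libraries with high choroid plexus sums (2590 to 4502 CPM) against dorsal ones with low sums (270 to 451 CPM). Which of these ends a call was not tested.

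Depth differed widely between the members, from 10 tags over all libraries for Adra1d to 8081 for Adra2c. Drd1 had 1018, Drd5 829, Adra1a 746, Adra1b 3311, Adra2a 3779 and Adrb1 5156. Drd2, with 45, and Adra1d did not pass the filter on low counts, and the other 7 were tested. Of those 7, 3 were higher in the ventral than in the dorsal hippocampus (Adra2a, Drd1 and Adra1a), and none was lower. None differed between cKO and control past the threshold in either region.

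**Figure D1:**
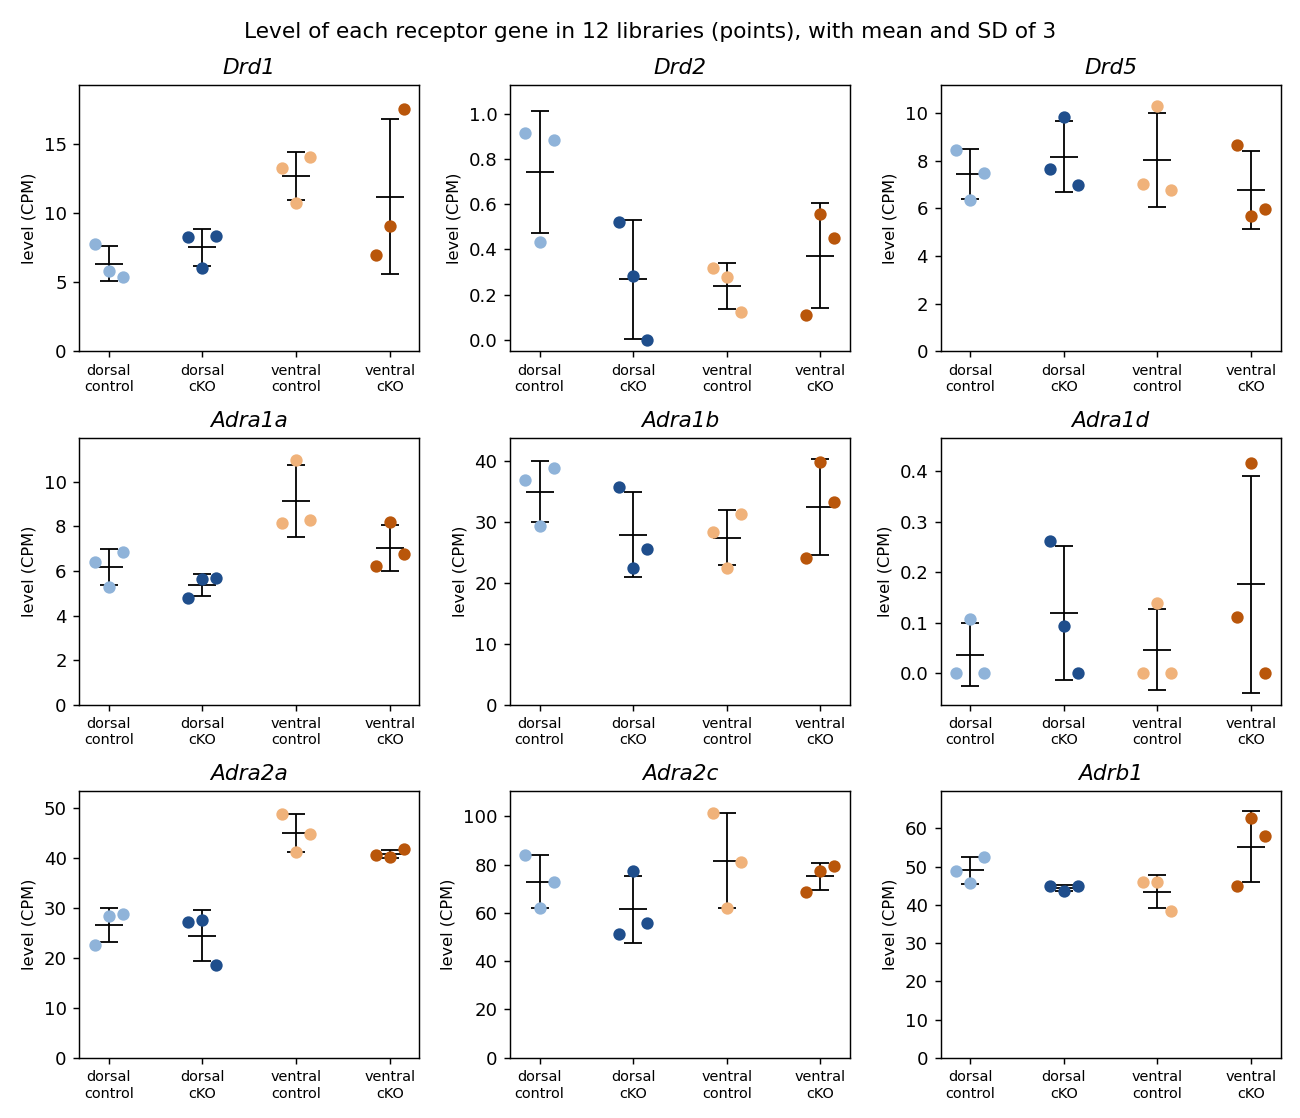
Level of each receptor gene in CPM (vertical axes, each with its own scale) in the 12 libraries, by region and genotype, with points for libraries and bars for the mean and SD of 3. The ventral points of Adra2a (40.2 to 48.7 CPM) lie above all of its dorsal points (18.5 to 28.8 CPM), while Drd2 stays under 1 CPM and Adra1d under 0.5 CPM.

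The region comparison asks whether the dorsal pole, tied mostly to spatial memory, and the ventral pole, tied mostly to emotional behaviour, carry the receptors at different levels. Adra2a encodes the alpha-2A receptor, which dampens transmitter release and excitability when noradrenaline is present. Its gene lies at chr19:54044151-54048982 on the plus strand (GRCm38, GENCODE M21, ENSMUSG00000033717). Dorsal controls 41, 49 and 71 read 22.6, 28.3 and 28.8 CPM, and dorsal cKO samples 40, 43 and 64 read 27.1, 27.5 and 18.5. Ventral controls 41, 49 and 50 read 48.7, 41.2 and 44.7 CPM, and ventral cKO samples 40, 63 and 64 read 40.6, 40.2 and 41.7. Every ventral library was above every dorsal library, and within each region the genotypes overlapped. The group means were, from the highest, 44.9 ± 3.8 CPM in ventral controls, 40.8 ± 0.767 in ventral cKO samples, 26.5 ± 3.44 in dorsal controls and 24.4 ± 5.07 in dorsal cKO samples (SD, n = 3 each), so that the step beyond the spread lay between the regions. The ventral level was 1.67-fold the dorsal level (log2 0.74 ± 0.10 SE, adjusted p = 3.79e-05, quasi-likelihood test of edgeR with Benjamini-Hochberg adjustment over 16414 genes). It was higher in controls alone (log2 0.76 ± 0.13, adjusted p = 0.0015) and in cKO samples alone (log2 0.72 ± 0.14, adjusted p = 0.00358), comparisons that use separate libraries and share 1 estimate of spread in edgeR. Without the 4 libraries unlike their region in choroid plexus transcripts, which leaves 1 ventral cKO sample assumed to vary like the other groups, the cKO difference was 0.55 with an adjusted p of 0.216.

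Drd1 encodes the D1 receptor, best known from striatal neurons and also present in hippocampal neurons. It lies at chr13:54051183-54055705 on the minus strand (ENSMUSG00000021478). In the same order of libraries, dorsal controls read 7.76, 5.82 and 5.41 CPM, and dorsal cKO samples read 8.28, 6 and 8.31. Ventral controls read 13.3, 10.7 and 14.1 CPM, and ventral cKO samples read 6.98, 9.04 and 17.5. The ventral controls were above all dorsal libraries, whereas ventral cKO 40 fell among them, and the ventral cKO group had the widest spread relative to its mean of any tested member and group (11.2 ± 5.59 CPM, SD, n = 3, a coefficient of variation of 50%). The means of the other groups were 12.7 ± 1.75 CPM in ventral controls, 7.53 ± 1.33 in dorsal cKO samples and 6.33 ± 1.25 in dorsal controls, and the ventral cKO mean differed from neither neighbour beyond that spread. Over all libraries Drd1 was 1.72-fold higher in the ventral hippocampus (log2 0.78 ± 0.19, adjusted p = 0.0099, edgeR). It was called in controls (log2 1.01 ± 0.27, adjusted p = 0.0269) and not in cKO samples (0.56 ± 0.27, adjusted p = 0.272), and the test of that difference itself gave -0.45 ± 0.38 with an adjusted p of 0.812 in edgeR. Single libraries moved both values: without ventral cKO 64 the cKO difference was 0.09 and the difference between genotypes -0.91, and without ventral cKO 40 they were 0.83 and -0.19, none of them called. Without the 4 libraries named above the difference over all libraries was 0.64 (adjusted p = 0.0694), so the call was lost. The call in controls was lost without dorsal control 49 (adjusted p = 0.082), dorsal control 71 (0.118), ventral control 41 (0.0726) or ventral control 50 (0.0796).

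Adra1a encodes the alpha-1A receptor, which couples to Gq, and lies at chr14:66635251-66771168 on the plus strand (ENSMUSG00000045875). Dorsal controls read 6.39, 5.28 and 6.84 CPM and dorsal cKO samples 4.8, 5.63 and 5.67. Ventral controls read 8.15, 11 and 8.28 CPM and ventral cKO samples 6.2, 8.2 and 6.74. Within each genotype every ventral library was above every dorsal one, and only across genotypes did the regions overlap. The means ran from 9.14 ± 1.6 CPM in ventral controls over 7.05 ± 1.03 in ventral cKO samples and 6.17 ± 0.801 in dorsal controls to 5.36 ± 0.492 in dorsal cKO samples, with neighbours in this order mostly within their spread. Over all libraries the ventral level was 1.39-fold the dorsal level (log2 0.48 ± 0.14, adjusted p = 0.026, edgeR), while neither controls (0.55 ± 0.19, adjusted p = 0.0837) nor cKO samples (0.40 ± 0.20, adjusted p = 0.284) passed alone. This call rests on single libraries: it was lost without dorsal cKO 40 (0.43, adjusted p = 0.0711), dorsal control 49 (0.42, 0.0704), ventral control 49 (0.40, 0.0639) or ventral cKO 63 (0.42, 0.0743). It was also lost without the 4 libraries named above, although the difference was then larger (0.55).

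The 3 calls among 7 tested members stand beside 14.1% of all 16414 genes called in either direction between the regions, with 6.67% called higher and 7.43% lower in the ventral hippocampus. In controls 2 of 7 were called, beside 7.86% of genes (3.48% higher, 4.38% lower), and in cKO samples 1 of 7, beside 6.16% (2.83% higher, 3.33% lower). Among the 7 tested members, regions did not overlap for 1 over all libraries (7.61% of genes), for 3 in controls (Drd1, Adra1a and Adra2a, 25.7% of genes) and for 3 in cKO samples (Adra1a, Adra2a and Adrb1, 24.7% of genes). The median region difference of the 7 members was 0.23 on the log2 scale against 0 for all genes tested. Because the members were chosen with earlier results of these data known, these figures are descriptive and do not compare an unselected set.

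**Figure D2:**
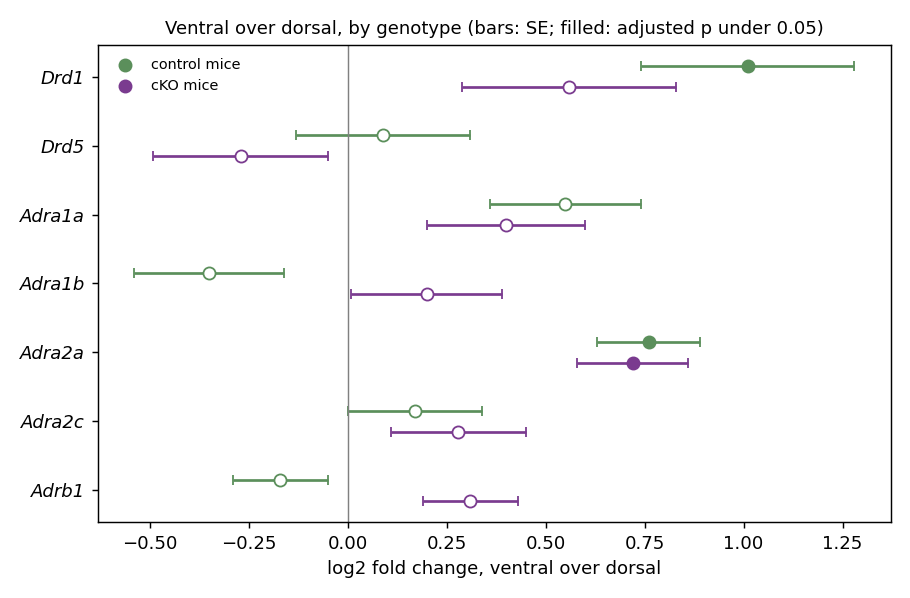
Log2 fold change of ventral over dorsal hippocampus (horizontal axis) for the 7 tested receptor genes, in control and cKO samples, with bars for the SE and filled points for an adjusted p under 0.05. Adra2a lies near 0.7 in both genotypes (0.76 and 0.72), and Drd1 is filled in controls (1.01) and open in cKO samples (0.56).

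The other 4 tested members showed no region difference past the threshold. Adra2c, the alpha-2C receptor gene (chr5:35278319-35281763, plus strand, a single exon, ENSMUSG00000045318), read 84, 62.1 and 72.7 CPM in dorsal controls and 51.2, 77.2 and 55.9 in dorsal cKO samples. Ventral controls read 101.4, 62 and 81.1 CPM and ventral cKO samples 68.8, 77.1 and 79.6. The groups overlapped throughout, and the region difference was 0.23 ± 0.12 (adjusted p = 0.235, edgeR). Of the pair of alpha-2 genes only Adra2a was thus called, with both values above 0, and the difference between these genes was not tested. With the number in the sample title as a replicate block, Adra2c was called too (0.30, adjusted p = 0.0459, edgeR).

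Drd5, the D5 receptor gene (chr5:38319367-38322518, plus strand, a single exon, ENSMUSG00000039358), encodes the D1-class receptor with the higher affinity for dopamine. Its dorsal level was 8.44, 6.36 and 7.5 CPM in controls and 7.67, 9.85 and 6.99 in cKO samples. Its ventral level was 7.02, 10.3 and 6.77 CPM in controls and 8.64, 5.7 and 5.99 in cKO samples. All 4 groups overlapped, with a region difference of -0.09 ± 0.16 (adjusted p = 0.771, edgeR).

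Adra1b, the alpha-1B receptor gene (chr11:43774606-43901210, minus strand, ENSMUSG00000050541), read 36.8, 29.2 and 38.7 CPM in dorsal controls and 35.7, 22.3 and 25.5 in dorsal cKO samples. Ventral controls read 28.4, 22.4 and 31.2 CPM and ventral cKO samples 24, 39.8 and 33.3. The order of the group means turned over between regions, with controls the higher in the dorsal (34.9 ± 5.04 against 27.8 ± 6.97 SD, n = 3 each) and cKO samples in the ventral hippocampus (32.4 ± 7.9 against 27.3 ± 4.52), each pair within the spread of its libraries. The region difference over all libraries was -0.07 ± 0.14 (adjusted p = 0.784, edgeR).

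Adrb1, the beta-1 receptor gene through which noradrenaline raises cyclic AMP in forebrain neurons (chr19:56722199-56733113, plus strand, ENSMUSG00000035283), had the lowest coefficient of variation over the 12 libraries of all 9 members, 13.9%. It read 48.8, 45.7 and 52.6 CPM in dorsal controls and 44.8, 43.5 and 45 in dorsal cKO samples. Ventral controls read 46.1, 45.9 and 38.5 CPM and ventral cKO samples 45, 62.8 and 58. Ventral cKO 63 and 64 were above every other library, and ventral cKO 40 was not. The region difference was 0.07 ± 0.08 over all libraries (adjusted p = 0.654), -0.17 ± 0.12 in controls (0.44) and 0.31 ± 0.12 in cKO samples (0.146), all from edgeR. Without ventral cKO 40 the cKO difference was 0.45 and passed (adjusted p = 0.0324).

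The genotype comparison asks whether these transcripts differ between mice with and without the inducible Cre, in tissue that also holds cells where the Camk2a promoter is silent. No receptor gene was called in either region (0% of 15692 genes called in the dorsal and 0% of 15102 in the ventral hippocampus by edgeR). By unadjusted p under 0.05, 769 genes (4.9%) passed in the dorsal and 1092 (7.23%) in the ventral hippocampus, among them 0 and 1 of the 7 members. DESeq2 called 22 genes in the dorsal and 9 in the ventral hippocampus, no receptor gene among them. The 1 member was Adrb1, at 55.3 ± 9.23 CPM in ventral cKO samples and 43.5 ± 4.32 in ventral controls (SD, n = 3 each), a log2 fold change of 0.34 ± 0.14 (adjusted p = 0.633, edgeR). In the dorsal hippocampus Adrb1 went the other way by -0.14 ± 0.09 (adjusted p = 0.968), and there the genotypes did not overlap, as for 10.1% of genes. The difference between the regions' genotype effects was 0.48 ± 0.17 for Adrb1 (adjusted p = 0.482) and 0.55 ± 0.27 for Adra1b (adjusted p = 0.642) in edgeR, beside 0% of 16414 genes called, 7.96% at an unadjusted p under 0.05 and 34 genes by DESeq2. The authors' deposited table, which treats sequencing runs as its columns, gives Adrb1 a log2 fold change of 0.31 in the ventral hippocampus with a false discovery rate of 0.0619.

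The other members differed between genotypes by less than their error allowed to call. In the dorsal hippocampus the log2 fold changes ran from -0.32 ± 0.16 for Adra1b to 0.24 ± 0.21 for Drd1, and in the ventral from -0.37 ± 0.20 for Adra1a to the 0.34 of Adrb1. Adra1a had a value below 0 in both regions (-0.21 ± 0.20 in the dorsal), as did Adra2a (-0.10 ± 0.15 and -0.14 ± 0.11) and Adra2c (-0.24 ± 0.14 and -0.13 ± 0.15), none of which passed. The median over the 7 members was -0.14 in each region against 0 for all genes. No ventral member had genotypes that did not overlap, where 12.7% of all genes did. The genotype and region comparisons share libraries, so their values are set side by side and not counted as support for each other.

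**Figure D3:**
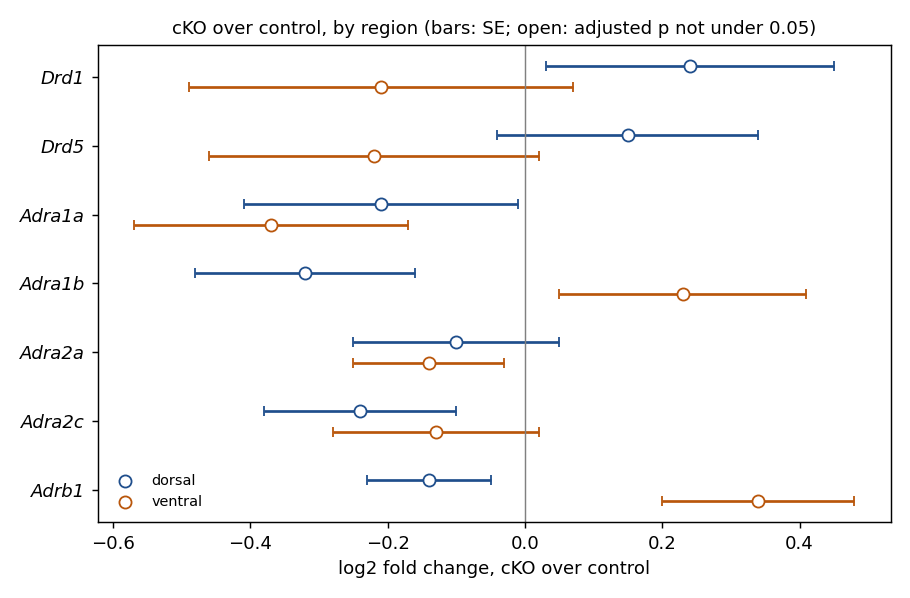
Log2 fold change of cKO over control (horizontal axis) for the 7 tested receptor genes in the dorsal and the ventral hippocampus, with bars for the SE and all points open because no adjusted p was under 0.05. Adra1b and Adrb1 lie on opposite sides of 0 in the 2 regions (-0.32 and 0.23, -0.14 and 0.34).

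Drd2 and Adra1d were near the limit of detection. Drd2 encodes the D2 receptor, found in the hippocampus mainly in mossy cells of the hilus, and lies at chr9:49340627-49408177 on the plus strand (ENSMUSG00000032259). Dorsal controls had 8, 4 and 8 tags, dorsal cKO samples 6, 3 and 0, ventral controls 5, 2 and 1, and ventral cKO samples 1, 4 and 3. Pooled over each group this is 0.738 CPM (exact 95% Poisson interval 0.451 to 1.14), 0.328 (0.15 to 0.623), 0.258 (0.111 to 0.509) and 0.349 (0.151 to 0.688), intervals that cover counting error only. The dorsal controls gave the highest pooled level, and its interval overlaps that of the dorsal cKO samples. In controls the regions did not overlap (0.431 to 0.913 CPM in dorsal and 0.125 to 0.316 in ventral libraries), at 1 to 8 tags per library. The same held for 25.7% of the 16414 genes tested in controls. With no filter on low counts edgeR gave a region difference in controls of -1.49 ± 0.74 (adjusted p = 0.335) and a dorsal genotype difference of -1.19 ± 0.71 (adjusted p = 0.848). The 0 in dorsal cKO 64, the shallowest library, allows up to 0.567 CPM. Adra1d, the alpha-1D receptor gene (chr2:131545850-131562283, minus strand, ENSMUSG00000027335), had 10 tags in 6 of the 12 libraries, at most 3 in any 1, and no difference was detectable at this depth.

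Markers of some other cell types moved with region too, where 14.1% of all genes were called. Oligodendrocyte markers were lower in the ventral hippocampus for 6 of 6 genes (summed level 2594 to 3385 CPM against 7114 to 8778 in the dorsal), and thalamic markers for 3 of 8 (171 to 215 against 252 to 306 CPM). Markers of the ventral hippocampus were higher for 7 of 7 (261 to 367 against 88.3 to 143 CPM). Markers listed for the dorsal hippocampus did not follow their name, with 2 of 6 higher in the ventral hippocampus, 1 lower, a median of -0.04 and overlapping sums (252 to 392 CPM in dorsal and 297 to 391 in ventral libraries). Markers of CA2 and CA3 pyramidal cells, a list that shares Rgs14 with the pathway genes, were lower in the ventral hippocampus for 2 of 5 tested genes, with a median of -0.49 (215 to 276 CPM in dorsal and 100.3 to 255 in ventral libraries). CA1 pyramidal cell markers summed to 786 to 1063 CPM in dorsal and 942 to 1198 in ventral libraries, with 2 of 4 genes higher and 1 lower. Striatal projection neuron markers, tried because Drd1 is abundant in striatum, summed to 163 to 208 CPM in dorsal and 166 to 211 in ventral libraries, ranges that overlap, with 2 of 11 tested genes higher and 1 lower. Those higher were Rxrg (log2 3.10 ± 0.16, adjusted p = 1.76e-09, edgeR), at 14.2 to 23.6 CPM in ventral and 1.13 to 2.72 in dorsal libraries, and Tac1 (0.43 ± 0.12, adjusted p = 0.0209), and Penk was lower (-0.66 ± 0.10, adjusted p = 0.000227). The levels of this list ran from genes such as Gpr6 (0.189 to 1.2 CPM) and Adora2a (0.878 to 2.65 CPM) to Pde10a (31 to 46.7 CPM) and Ppp1r1b (37.9 to 74.7 CPM). In other lists 1 gene was lower, for dentate granule cells (of 6 tested), interneurons (of 8), astrocytes (of 6) and microglia (of 6). The dorsal hippocampus list shares Lct with the dentate granule list and Wfs1 with the CA1 list. The striatal list shares Rgs9 and Ppp1r1b with the pathway genes, so counts from these lists are not separate. For endothelial and mural cells 1 of 6 was higher, and for cortex and subiculum 1 of 6 was higher and 1 lower. Hilar mossy cells had 0 of 4 tested genes called and choroid plexus 0 of 8. In whole tissue, fewer cells of a type and less RNA per cell cannot be told apart, and the part of these markers in the receptor differences was not tested. Choroid plexus markers also moved with ventral genotype, 6 of 8 at an unadjusted p under 0.05 with a median log2 fold change of -1.80, and their part in the ventral genotype values was not tested.

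**Figure D4:**
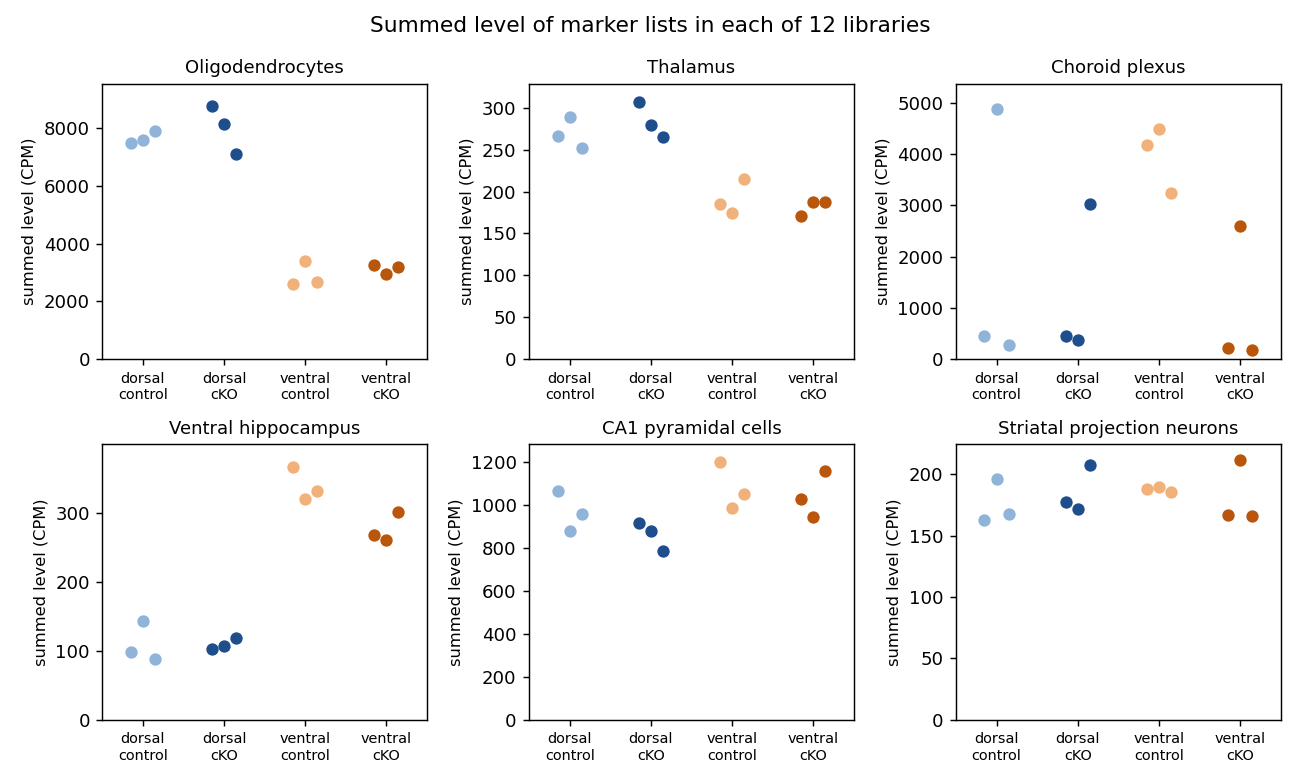
Summed level in CPM (vertical axes) of 6 marker lists in each of the 12 libraries by region and genotype. Oligodendrocyte sums part the regions (2594 to 3385 against 7114 to 8778 CPM), and choroid plexus sums part libraries within 3 of the 4 groups.

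The genes around the receptors were followed as lists. Of 12 genes that make, carry or break down catecholamines, 6 could be tested, and 1 was higher and 1 lower in the ventral hippocampus. Of all genes 6.67% were called higher and 7.43% lower, and no list was tested against these shares. Slc29a4, a plasma membrane monoamine transporter, was higher by 0.96 ± 0.22 (adjusted p = 0.00646), at 24.2 to 26.4 CPM in ventral controls, 8.69 to 19.7 in ventral cKO samples, 7.41 to 14.7 in dorsal controls and 6.02 to 15.1 in dorsal cKO samples. Its call was lost with the number in the sample title as a replicate block, which keeps only numbers found in both regions (0.72, adjusted p = 0.0933, edgeR). Without the 4 libraries named above the difference was 1.61. That fit sets ventral libraries with high choroid plexus sums (2590 to 4502 CPM) against dorsal ones with low sums (270 to 451 CPM). The part of choroid plexus tissue in the Slc29a4 difference was not tested. Ddc, the decarboxylase that makes dopamine from L-DOPA, was lower by -0.71 ± 0.12 (adjusted p = 0.00046, edgeR). The vesicular transporter gene Slc18a2 (-0.42 ± 0.19, adjusted p = 0.163) and Maob (0.10 ± 0.07, adjusted p = 0.42), which breaks down dopamine, did not pass. Th, Dbh, Slc6a2 and Slc6a3, known mainly from the neurons that send catecholamine axons here, were under 1.1 CPM in each library, as was Pnmt. Drd4 and Adra2b were under 0.4 CPM, and Adrb3, at 1.4 to 3.48 CPM, had a region difference of 0.17 ± 0.23 (adjusted p = 0.7).

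Among 16 tested G protein subunit genes 3 were higher in the ventral hippocampus and none lower, with a median of 0.07, beside 6.67% of all genes higher and 7.43% lower. The subunit genes called were Gnaz (0.29 ± 0.06, adjusted p = 0.00493), whose inhibitory alpha subunit alpha-2 receptors can use, Gnal (0.32 ± 0.07, 0.00507), which encodes the stimulatory subunit Golf used by D1 receptors in striatum, and Gnas (0.25 ± 0.07, 0.0237), which encodes the general stimulatory subunit, all by edgeR. Gng7, a gamma subunit gene, stood at 0.22 ± 0.07 (adjusted p = 0.0593). Without the 4 libraries named above Gnaz (adjusted p = 0.0924), Gnal (0.109) and Gnas (0.0504) did not pass, and Gnas was also lost without dorsal control 41 or 71, dorsal cKO 40 or 64, ventral control 50 or ventral cKO 63 (adjusted p = 0.0515 to 0.0661). Gng7 passed without ventral control 41 (adjusted p = 0.0397) and with counts of sequencing run 3 only (0.0386), both by edgeR.

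Of 22 tested effector genes 4 were higher and 4 lower in the ventral hippocampus, so the list moved in no single direction. Of all genes 6.67% were higher and 7.43% lower. The calcium-stimulated adenylyl cyclase gene Adcy1 was lower (-0.46 ± 0.07, adjusted p = 0.000168), at 227 to 277 CPM in ventral and 291 to 388 in dorsal libraries, and so was Plcb4 (-0.60 ± 0.10, adjusted p = 0.000419), a phospholipase C that acts below Gq. Adcy5, the cyclase that D1 receptors drive in striatum, was higher (0.34 ± 0.05, adjusted p = 0.000377), as was Prkar1b (0.22 ± 0.06, adjusted p = 0.0219), a regulatory subunit of protein kinase A, all by edgeR. The Prkar1b call was lost without dorsal cKO 40 or 64, ventral control 50 or ventral cKO 64 (adjusted p = 0.053 to 0.0749) and without the 4 libraries named above (0.231). Of 16 tested kinase, arrestin and RGS genes 1 was called, beside 14.1% of all genes. It was Grk3 (0.45 ± 0.06, adjusted p = 6.17e-05, edgeR), a kinase that switches off activated receptors, at 95.8 to 115 CPM in ventral and 70.4 to 81.1 in dorsal libraries. Rgs16 (-0.40 ± 0.13, adjusted p = 0.0508), Rgs14 (-0.46 ± 0.16, 0.062) and Grk6 (0.24 ± 0.09, 0.0899) did not pass in edgeR with the main settings. Each passed when single libraries were left out, Rgs16 without dorsal cKO 64, dorsal control 71 or ventral control 50 (adjusted p = 0.00934 to 0.0498), Rgs14 without ventral cKO 40 or ventral control 49 (0.0205 and 0.0186) and Grk6 without ventral control 41 (0.0217). With all libraries kept, Rgs16 also passed in edgeR under another scaling (RLE, adjusted p = 0.0491) and a stricter filter (0.0485). Rgs14 did so with no filter on low counts (0.0176).

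**Figure D5:**
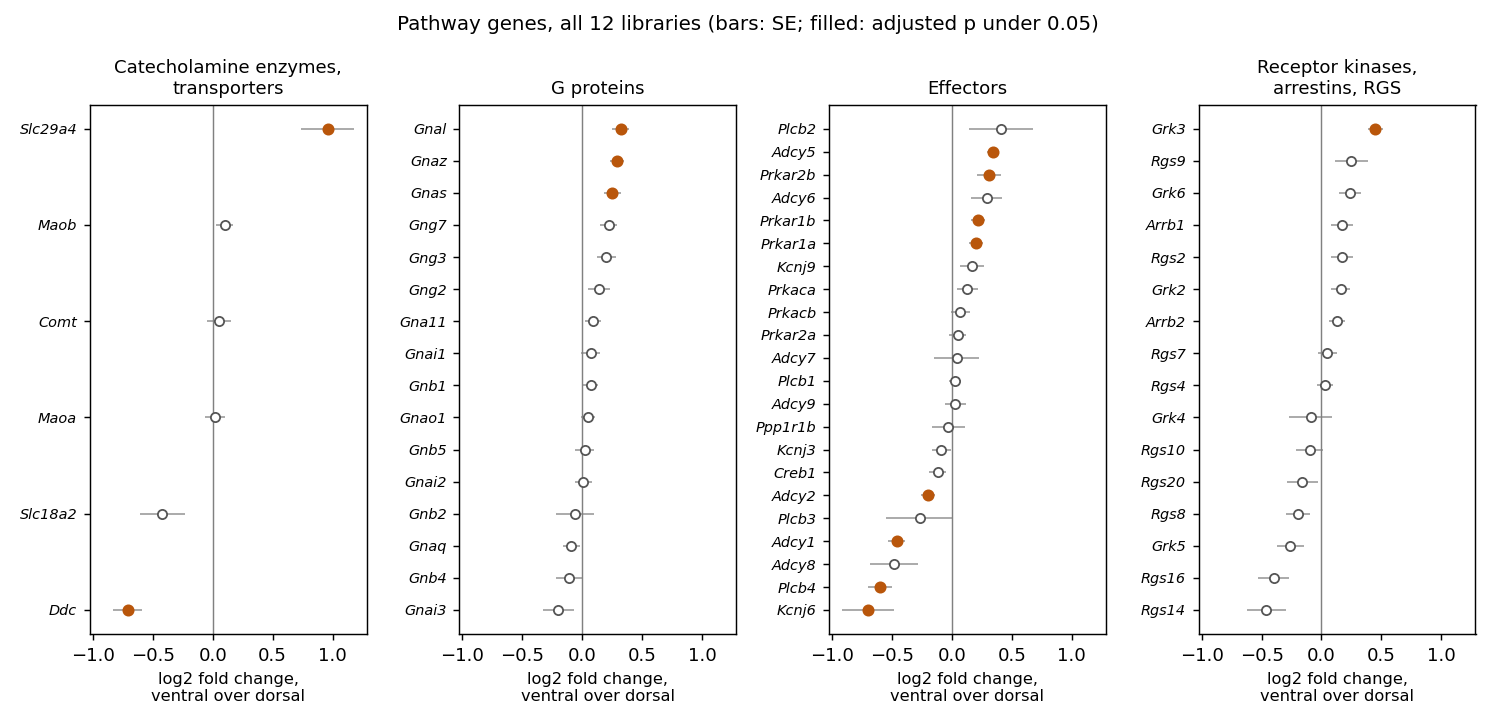
Log2 fold change of ventral over dorsal hippocampus (horizontal axis) for the tested genes of 4 pathway lists over all 12 libraries, with bars for the SE and filled points for an adjusted p under 0.05. Slc29a4 (0.96) and Ddc (-0.71) lie at the ends of the first list, and the effector list has 4 filled points on each side of 0.

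Between genotypes no gene of these lists passed in either region in edgeR. The pathway genes with an unadjusted p under 0.05 numbered 3 in the dorsal and 6 in the ventral hippocampus, from lists of 1, 6, 16, 22 and 16 tested genes. Of all genes 4.9% and 7.23% had such a p, so these counts single out no list. The lowest p belonged to Rgs20, which encodes a GTPase activator of the inhibitory subunit of Gnaz. It read 35.4 to 54.6 CPM in dorsal cKO samples against 47.2 to 80.7 in dorsal controls (-0.56 ± 0.18, adjusted p = 0.879), and 49.1 to 68.8 CPM in ventral cKO samples against 36 to 39.6 in ventral controls (0.60 ± 0.13, adjusted p = 0.608). The difference between those effects was 1.17 ± 0.26 (adjusted p = 0.335, edgeR). Slc29a4 was at -0.89 ± 0.22 in ventral cKO samples (adjusted p = 0.608), and without ventral cKO 63 it was at -1.24 and passed (adjusted p = 0.00972). The choroid plexus sum was 2590 CPM in ventral cKO 63, 210 in ventral cKO 40, 173 in ventral cKO 64 and 3250 to 4502 in ventral controls. The part of choroid plexus tissue in the Slc29a4 genotype difference was not tested. Adcy6 (0.55 ± 0.17), Ppp1r1b (-0.44 ± 0.15), which encodes the dopamine-regulated phosphatase inhibitor DARPP-32, Maob (-0.27 ± 0.10) and Rgs14 (0.60 ± 0.26) were the other ventral pathway genes with an unadjusted p under 0.05. Their adjusted p was 0.608 to 0.674 in edgeR. Rgs14 (-0.28 ± 0.09) and Prkacb (0.19 ± 0.08) were the other dorsal ones. With no filter on low counts, edgeR called Rgs20 in the dorsal (adjusted p = 0.000306) and the ventral hippocampus (0.000484) and in the interaction (0.0338), and in the ventral hippocampus also Rgs14 (6.18e-06), Slc29a4 (1.38e-05), Adcy6 (0.036) and Ppp1r1b (0.0387). That setting called 94 genes in the dorsal and 302 in the ventral hippocampus, against 0 with the filter. Fold changes hardly moved, while most errors fell: that of ventral Rgs14 went from 0.26 to 0.11, and that of ventral Rgs20 stayed at 0.13. Ventral Rgs14 levels overlapped between genotypes (55.9 to 131 CPM in controls, 117 to 200 in cKO samples). These calls thus depend on the filter.

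Across the 12 libraries the members differed in which genes ran closest to them, by Pearson correlation of log2 CPM over 16413 genes. Closest to Adra2a were Gnl3l (0.981), Amz1 (0.977) and Gm44812 (0.964). For Drd1 they were Fam217b (0.931), Cyb561 (0.926) and Mvd (0.926), and for Adra1a Ndufaf5 (0.93), Dtnb (0.899) and Dnajc10 (0.897). For Adra2c they were Rab24 (0.952), Ndrg4 (0.944) and Ifngr2 (0.936), for Adra1b Cdh6 (0.919), Dusp26 (0.913) and Thrap3 (0.887), for Drd5 Lrrc36 (0.912), Nckap1 (0.893) and Amigo2 (0.87), and for Adrb1 Rab10os (0.897), Dnajc19-ps (0.895) and Ensa (0.861). No gene was closest to more than 1 member. Among the members themselves the highest values were Adra1a with Adra2a (0.67), Drd1 with Adra2a (0.61) and Adra1b with Adrb1 (0.57), and the lowest was Drd5 with Adra1b (-0.61). These libraries differ by region, depth and tissue makeup, which all pairs share, so the values describe them only.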

How the data were processed

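Dorsal and ventral hippocampus of 12 samples was measured by 3′ mRNA sequencing from 500 ng of RNA. Per the submitters' processing notes, cutadapt, HISAT2, featureCounts and edgeR were used on GRCm38, with versions and the strand setting not given in the sources used here. The authors deposited whole-number counts per gene and sequencing run (35 runs, 2 for dorsal cKO 64 and 3 for the others). The deposited tables also hold a CPM signal per run, which was not used. Per the file headers, the authors' comparison gives log2 fold changes, likelihood ratio scores and p-values with their false discovery rates, of which the Adrb1 values are quoted.

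Counts were summed over runs per sample. Same-group libraries differed by more than sampling noise (chi-square per gene 3.71 to 9.05, 12 pairs). Testing used edgeR 4.0.16 (R 4.3.3) and its quasi-likelihood test, after filterByExpr by group and TMM scaling, and p-values were adjusted by Benjamini-Hochberg over all genes tested, with a threshold of 0.05. Genotype was tested in the 6 samples of a region, and region and the interaction in 1 fit of all 12. The script was tested on simulated data. Genes named are the 9 members, up to 4 of lowest p per list and comparison, and the 3 genes most correlated with each member. Alternatives were DESeq2 1.42.0, other scalings, no or a stricter filter (mean of 10 counts), run 3 only, a replicate block and leaving out each sample. The replicate block kept only samples whose number occurs in both regions. Leaving out 4 libraries by choroid plexus level was chosen after seeing the data. The members and lists were chosen with earlier results of these data known. Coordinates are from GENCODE M21, in which all 9 identifiers matched, and promoters from RefSeq.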

Additional observations from a re-analysis of the deposited data

Results flagged for a closer look

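Adra1d was 0.417 CPM in ventral cKO 63, standing apart from the other 5 of the 6 ventral libraries by the gap to its neighbour relative to the whole range. This rests on 3 tags. Chance sets a sample apart in this way in about 1 in 20 groups.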

How the results depend on the processing

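Adra2a kept its call between regions over all libraries under every alternative run, and in the 12 fits that left out 1 library it ran from 0.67 to 0.79. Single members without a call changed sign in several alternatives: dorsal genotype Adra1a with run 3 only (0.15), and, leaving out 1 library, dorsal genotype Drd5 (0 to 0.25) and Adra2a (-0.21 to 0.03), ventral genotype Drd1 (-0.68 to 0.05) and Adra2c (-0.29 to 0.07), region Adra1b (-0.16 to 0.04), control region Drd5 (-0.11 to 0.2) and Adra2c (-0.03 to 0.32), and interaction Adra2a (-0.17 to 0.06) and Adra2c (-0.03 to 0.32). Genotype calls over all genes were 22 by DESeq2 and 94 with no filter in the dorsal, 9 and 302 in the ventral hippocampus, and 34 and 13 for the interaction, none of them a receptor. Leaving out 1 library, calls over all genes ran 0 to 25 (dorsal genotype, 25 without dorsal control 49), 0 to 55 (ventral genotype, 55 without ventral cKO 63), 0 to 4 (interaction), 1838 to 2261 (region), 794 to 1292 (region, controls) and 644 to 1067 (region, cKO), and receptor calls 2 to 3, 1 to 2 and 1 to 2 for the 3 region comparisons. Without the 4 libraries unlike their region in choroid plexus transcripts, chosen after seeing the data, 1132 genes and 1 receptor gene were called between regions, 310 and 0 in cKO samples, and Drd5 in controls was at -0.02. With run 3 only, Drd1 was at 0.69 between regions (adjusted p = 0.0504) and 0.86 in controls (0.107), both without a call, and Adra1a in controls gained one (0.85, 0.0467).

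The numbers 40, 41, 49 and 64 occur in both regions. Deviations of same-numbered samples correlated at 0.035, 0.106, 0.076 and -0.107, and the labels do not state pairing. With the number as a replicate block, only the samples numbered 40, 41, 49 and 64 entered, so the fit also lost libraries. It called 1398 genes between regions, 636 in controls (1 receptor gene) and 500 in cKO samples. In that blocked edgeR fit Drd1 (0.61, adjusted p = 0.0843) and Adra1a (0.50, 0.135) lost their call between regions. So did Slc29a4 (0.72, 0.0933), Gnas (0.20, 0.228) and Prkar1b (0.20, 0.134). Drd1 in controls lost its call too (0.82, 0.148), and Adra2c gained one between regions (0.30, 0.0459). Uncalled values changed sign for Drd5 (0.10 between regions, 0.01 in cKO samples), Adra1b in cKO samples (-0.13) and Adra2a in the interaction (0.01). Whether pairing or the fewer libraries made these changes was not tested. No number occurs in both genotypes of a region. Depth limits Drd2 and Adra1d, where 0 tags allow 0.19 to 0.567 CPM.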
